A study of Homo sapiens with 8 samples.

Results

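After silencing of hMENA as a whole, cells of H1650, an established human non-small cell lung cancer line, had fewer listed regions of open chromatin and a lower fold at most shared ones than cells given a control siRNA, within each of the 2 replicate numbers. The comparison holds 4 ATAC-seq libraries of the 8 in the series, 2 labelled siMena and 2 labelled siControl. The distinct peak intervals of these 4 libraries were merged wherever they overlapped or touched, which gave 28693 regions covering 12.4 Mb, against 46665 regions when all 8 libraries were merged. Of the 28693, 637 (2.22%) were listed in all 4 libraries, 498 in both siControl libraries and neither siMena library, and 1 in both siMena libraries and neither siControl library. At the 637 shared regions the fold over local background was lower with siMena in both replicate numbers at 458 and higher in both at 26. The difference of library medians of log2 fold, -0.37, did not exceed the spread between replicates (two-sided exact permutation p = 0.667). Without siMena replicate 2 it was 0.10. With the 637 ranked by score among themselves in each library, 171 were lower with siMena in both numbers and 189 higher.

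hMENA is the human Ena/VASP protein encoded by ENAH. Proteins of this family sit at the growing ends of actin filaments, favour their elongation and take part in adhesion and migration. In epithelial cells the protein occurs as several splice isoforms, of which hMENA11a is one. ATAC-seq inserts sequencing adapters into accessible DNA with a transposase, so that promoters and enhancers in use appear as peaks of inserted tags. In both groups the cells were transfected with a lipid reagent and 20 nmol/L of siRNA. The siMena cells received a pool of duplexes against all ENAH transcripts and the siControl cells a pool without a target. The time from transfection to harvest, and whether the 2 libraries of a group came from separate cultures, are not given in the sources used here, so the spread between libraries may be technical. An siRNA acts on mRNA, so peaks do not check the knockdown. Untreated libraries and libraries of cells transfected with siRNAs against exon 11a (siMena11a), also 2 each, are used below only for their own values at these regions.

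The libraries differed more by replicate number than by treatment. Replicate 1 listed 27304 peaks in siControl and 14678 in siMena, and replicate 2 listed 5231 and 1020. The genome-wide background recovered from the peak values, which scales with the number of tags in a library and with the length to which the caller extends them, was 0.935 and 0.725 tags per position in siControl and siMena replicate 1 and 2.27 and 2.88 in replicate 2. Replicate number and this measure of depth move together, and their part in the values below was not tested. Both siMena lists were the shorter list of their replicate number.

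The regions formed largely, but not fully, nested sets. The largest set, 13293 regions (46.3%), was listed by siControl replicate 1 alone. Its regions were narrow (median 277 bp) and weak (median fold 5.56). A further 9216 regions were listed by replicate 1 of both groups, with a median fold of 7.08 in siControl and 5.79 in siMena. Another 3420 were listed by these and siControl replicate 2, with medians of 9.16 and 7.14 in replicate 1. Regions listed by siMena replicate 1 alone numbered 936, with a median of 212.5 bp in width. Along these sets fold was larger the more libraries listed a region. Of the 14268 regions of siMena replicate 1, 93.2% were also in siControl replicate 1 (95% exact Clopper-Pearson interval 92.8 to 93.6%). Of the 1001 regions of siMena replicate 2, 84.6% (82.2 to 86.8%) were also in siControl replicate 2. Across replicate numbers, 68.8% of these 1001 (65.9 to 71.7%) were in siMena replicate 1 and 72.7% (69.9 to 75.5%) in siControl replicate 1. These intervals, and those below, cover counting error over regions only.

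**Figure D1:**
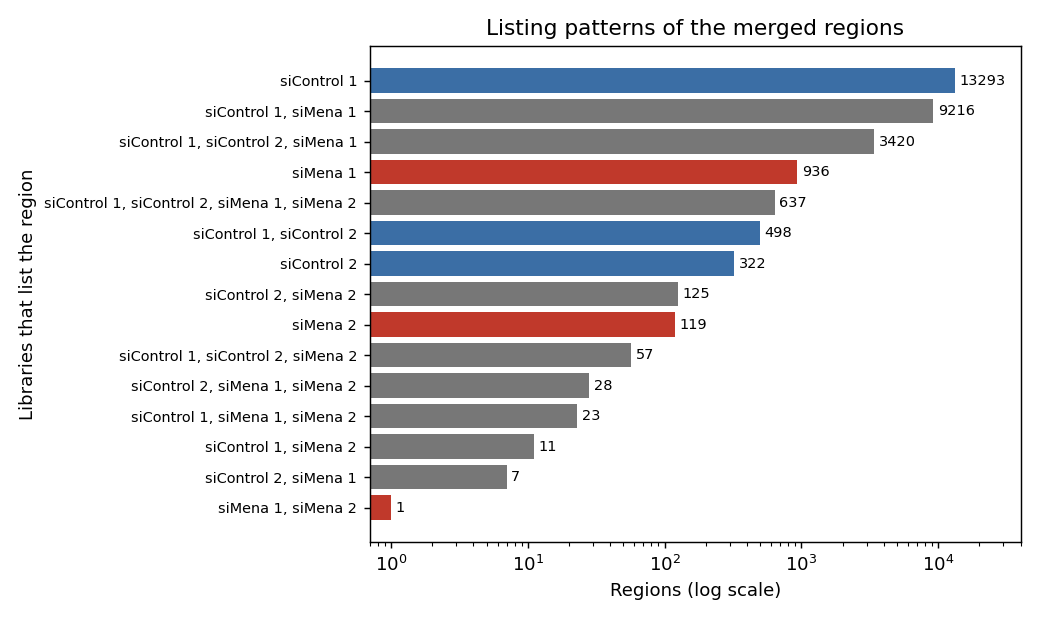
Number of merged regions (log scale) for each combination of the 4 libraries that list them, with grey bars for combinations that hold both groups, blue for siControl alone and red for siMena alone. The bar for siControl replicate 1 alone reaches 13293 regions and the bar for both siMena libraries alone holds 1.

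Fold at the 637 shared regions was lower with siMena within each replicate number. The fold is the authors' value for a summit, its tag pileup over local background with 1 added to each. Its median was 10.1 in siControl replicate 1 and 8.63 in siMena replicate 1, and 6.41 and 4.48 in replicate 2. Both siMena values lay below the siControl value of the same number, but siMena replicate 1 lay above siControl replicate 2, so the groups overlapped. The median difference of log2 fold per region, siMena minus siControl, was -0.17 in replicate 1 (quartiles -0.35 to -0.02) and -0.41 in replicate 2 (-0.67 to -0.17). It was below 0 at 490 of 637 regions in replicate 1 and at 577 in replicate 2. The mean of the library medians of log2 fold was 2.64 ± 0.67 (SD, n = 2) with siMena and 3.01 ± 0.46 with siControl, a difference of -0.37 that did not exceed the spread between replicates (two-sided exact permutation p = 0.667, the smallest possible with 2 libraries against 2 being 0.3333). Over the same 637 regions the difference was 0.10 without siMena replicate 2, with siMena replicate 1 then set against both siControl libraries. It was -0.04 without siControl replicate 1, -0.70 without siControl replicate 2 and -0.84 without siMena replicate 1.

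**Figure D2:**
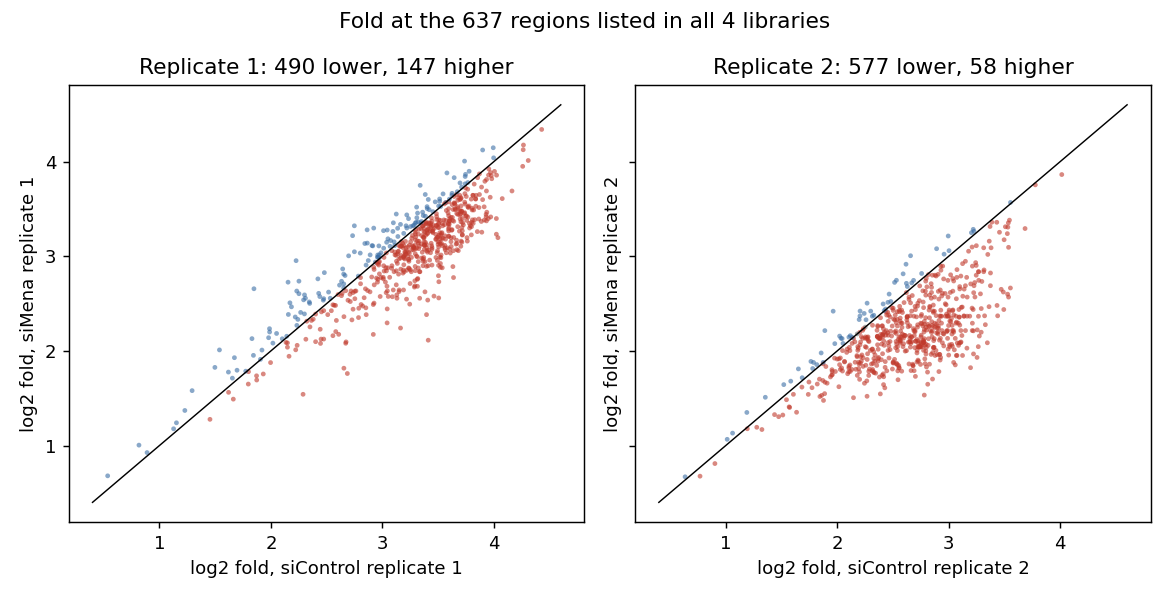
Log2 fold of each of the 637 shared regions in siMena (vertical axis) against siControl (horizontal axis) of the same replicate number, with the line of equality, regions lower with siMena in red and higher in blue. The points lie mostly below the line in both panels, at 490 regions in replicate 1 and 577 in replicate 2.

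The same direction was seen in the tags themselves. The median summit of a shared region held 55 tags in siControl replicate 1, 32 in siMena replicate 1, 35 in siControl replicate 2 and 23 in siMena replicate 2. Divided by the genome-wide background of the library, these medians were 58.8, 44.1, 15.4 and 7.99. On the log2 scale this enrichment differed per region by a median of -0.32 in replicate 1 and -0.76 in replicate 2, and it was lower with siMena at 501 and 621 of the 637 regions. It was lower in both numbers at 499 regions and higher in both at 14. Between the replicates of siControl it differed by -1.98, a larger step than either treatment difference.

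The difference in fold varied with the siControl fold of a region, mainly in replicate 2. The shared regions were split in 4 equal groups by siControl fold, taking the lower of both libraries. In the weakest group, the median log2 difference was -0.11 in replicate 1 and -0.14 in replicate 2. In the strongest group it was -0.17 and -0.67, with a median replicate 2 fold of 8.73 in siControl and 5.42 in siMena. A region had to keep enough fold to be listed in siMena replicate 2, so weak regions could enter the 637 only with a small difference. The siControl fold also sets the groups and is subtracted in the difference. The pattern was not tested apart from this link.

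The order of the shared regions by fold was kept more closely between the groups in replicate 1 than in replicate 2. Over the 637 regions, Spearman's rho of log2 fold was 0.84 between siControl and siMena replicate 1, 0.63 between siControl and siMena replicate 2, 0.62 between the siControl replicates and 0.37 between the siMena replicates. The differences siMena minus siControl of the 2 replicate numbers correlated with a rho of 0.22 across these regions. Regions are not independent replicates, and all libraries share the cell line. Summits kept their place to a similar degree in all pairs, with a median distance between the strongest summits of 29 bp for siControl against siMena replicate 1 and 41 bp for replicate 2, against 29 bp between the siControl and 45 bp between the siMena replicates.

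A score percentile ranks a region by its -log10 q among all peaks of its own list, with 100 as the strongest. The 637 regions were a small part of the 27304 peaks of siControl replicate 1 but most of the 1020 of siMena replicate 2. Own-list percentiles and the counts based on them therefore depend on list length as well as on strength. The shared regions had a median percentile of 97.0 in siControl replicate 1, 90.2 in siControl replicate 2, 95.1 in siMena replicate 1 and 50.6 in siMena replicate 2. Their mean was 93.6 ± 4.77 (SD, n = 2) with siControl and 72.8 ± 31.4 with siMena (two-sided exact permutation p = 0.667). This difference of -20.8 points was 1.43 points over the same 637 regions without siMena replicate 2, -43.0 without siMena replicate 1, -17.4 without siControl replicate 1 and -24.1 without siControl replicate 2. Regions whose percentile was lower in both siMena than in both siControl libraries numbered 74 (11.6% of the 637), and 1 (0.157%) was higher in both. With all lists shortened to the length of the shortest, 51 of 247 shared regions (20.6%) were lower without overlap and 24 (9.72%) higher. When the 637 regions were ranked among themselves in each library, 80 (12.6%) ranked lower in both siMena libraries than in both siControl libraries and 73 (11.5%) higher. By log2 fold, 58 (9.11%) were lower without overlap and 15 (2.35%) higher. By percentile of fold these counts were 89 (14.0%) and 16 (2.51%), and by summit tags over genome-wide background 26 (4.08%) and 6 (0.942%). Lower regions without overlap thus outnumbered higher ones on each measure, though by little when the shared regions were ranked among themselves. By that ranking, more regions were higher with siMena within both replicate numbers (189) than lower within both (171). With 1 library left out, regions listed in the other 3 numbered 664, 659, 695 and 4056 without siControl replicate 1, siControl replicate 2, siMena replicate 1 and siMena replicate 2. In that order, 29.5%, 57.8%, 72.4% and 22.2% of them were lower in own-list percentile without overlap and 2.86%, 12.4%, 8.20% and 18.0% higher. With 3 libraries in place of 4, fewer values have to be kept apart.

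The 74 lower regions were chosen by these values, which are given as a description. Their median fold was 10.3 and 7.83 in siControl replicates 1 and 2 and 7.73 and 4.53 in siMena. In untreated it was 11.5 and 10.2 and in siMena11a 10.4 and 5.67, over those of the 74 that each library listed. Over all 637 regions these medians were similar, at 11.4 and 9.65 in untreated and 10.2 and 5.52 in siMena11a. None of the 74 lay off the assembled chromosomes, against 56 of the 637 (8.79%).

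The widest gaps in percentile were on the lower side. In hg19 coordinates, which hold throughout, a region of 532 bp on chromosome 4 from 174291814 to 174292345 had percentiles of 96.9 and 93.1 in siControl replicates 1 and 2 and of 45.5 and 15.7 in siMena. Its folds were 8.96 and 7.28 in siControl against 4.73 and 4.11 in siMena, with 59 and 36 summit tags against 20 and 16. Both siMena values lay below both siControl values on each of these measures. In the libraries outside this comparison its fold was 9.13 and 8.60 in untreated replicates 1 and 2 and 7.83 and 5.00 in siMena11a.

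A region on chromosome 7 from 80352013 to 80352499 came next. Its fold was 10.6 and 7.65 in siControl, 5.80 and 4.90 in siMena, 12.5 and 9.39 in untreated and 9.80 and 5.93 in siMena11a. Here too every library outside the siMena group lay above both siMena libraries.

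The third, on chromosome 8 from 125641828 to 125642352, was weaker, with folds of 6.43 and 3.67 in siControl and 3.39 and 2.78 in siMena. In that region siMena11a replicate 2 had a fold of 2.97, between both siMena values, so the siMena libraries do not stand apart from all others there. The fourth region, on chromosome 1 from 238036751 to 238037262, had folds of 11.4 and 9.33 in siControl and 6.64 and 3.91 in siMena. Untreated had 10.9 and 12.8 there and siMena11a 15.1 and 6.03, the last also between both siMena values. Chromosome 12 held the fifth (38450414 to 38451120), with 11.0 and 7.45 against 5.97 and 3.89. Untreated had 11.4 and 10.4 there and siMena11a 8.37 and 4.72, the last again between both siMena values. The fifth region also had the widest gap on the lower side when the shared regions were ranked among themselves.

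The single region with a higher own-list percentile in both siMena libraries lay on the contig Un_gl000220 from 160897 to 161677. Its percentiles were 71.6 and 80.9 in siControl and 82.8 and 85.6 in siMena. Its folds of 2.18 and 2.02 against 2.26 and 2.09 were low and close together, over a local background of 55.6 and 86.9 tags in siMena.

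Ranked among the shared regions alone, 73 stood higher with siMena without overlap, against 1 by own-list percentile, and 80 stood lower. Those named here were chosen after this ranking was added. The widest gap on the higher side was at a narrow region of 255 bp on chromosome X from 125863369 to 125863623. It ranked at the 26.6th and 20.8th percentile of the 637 in siControl replicates 1 and 2 and at the 85.3rd and 75.8th in siMena. Its fold was 10.4 and 6.43 in siControl and 12.6 and 6.71 in siMena, so it was higher within each number while most shared regions were lower. Its folds of 12.8 and 10.8 in untreated and 9.64 and 7.34 in siMena11a lay on both sides of these values. A region on chromosome 11 from 95522529 to 95523775 had folds of 6.65 and 5.62 in siControl and 9.30 and 5.49 in siMena. There the fold was higher with siMena in replicate 1 only, while its rank was higher in both numbers. Next came 5910258 to 5910506 of chromosome 1, then 62608202 to 62609347 of chromosome 11. The fifth was 150632188 to 150632874 of chromosome 5, with folds of 9.31 and 3.90 in siControl against 10.8 and 5.35 in siMena.

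Most of the regions with the highest percentiles in all 4 libraries did not lie on the assembled chromosomes. The first lay on the contig 9_gl000199_random from 33997 to 34925, with folds of 8.42 and 6.35 in siControl and 8.97 and 5.35 in siMena. The next were on the contigs Un_gl000216 (75583 to 76220) and Un_gl000222 (83927 to 84779). They were followed by 190154689 to 190155891 of chromosome 4, with folds of 10.3 and 11.0 in siControl and 11.0 and 9.54 in siMena, and by chromosome 16 from 1075201 to 1075741, with 10.8 and 9.21 against 9.62 and 9.51. Their folds differed little between the groups, but they were chosen for a high percentile in all 4 libraries, siMena included. A region with a much lower percentile in siMena could not be among them. The 56 shared regions on unplaced and random contigs had a median log2 difference of 0.02 in replicate 1 and -0.10 in replicate 2, against -0.19 and -0.45 at the 581 shared regions on chromosomes 1 to 22 and X. Their median local background was 10.3 and 8.60 times the genome-wide level in siMena replicates 1 and 2, against 3.75 and 1.37 times on the chromosomes. A high local background lowers the weight of the 1 added to fold, and its part in this difference was not tested.

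Whether a siControl region was also listed with siMena depended on its fold. On the chromosomes, siMena replicate 1 listed 20.1% of the 4158 regions with a siControl replicate 1 fold from 4 to 5 (95% exact interval 18.9 to 21.4%). It listed 43.8% of those from 6 to 7, 74.3% of those from 8 to 9 and 92.4% of those from 10 to 12. Of the 705 regions with a fold of 12 or more, 97.7% (96.3 to 98.7%) were listed, so 16 were not. The siMena11a and untreated replicate 1 lists, both longer than the siControl list, held 79.2% and 73.7% of the regions from 4 to 5 and 100% of those at 12 or more.

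In replicate 2 siMena listed 8.79% of the 1592 regions with a siControl replicate 2 fold from 4 to 5 (7.45 to 10.3%), 21.8% of those from 6 to 7, 53.4% of those from 8 to 9 and 70.7% of the 41 from 10 to 12 (54.5 to 83.9%). It listed all 3 regions at 12 or more. Below 12, each of these shares was lower than that of siMena replicate 1 at the same siControl replicate 1 fold. Shared regions had lower folds in siControl replicate 2 than in replicate 1, so equal folds do not mean equal strength. By siControl replicate 2 fold, siMena replicate 1 listed 76.7%, 89.8%, 96.2% and 97.6% in these classes. At these levels below 12, siMena11a replicate 2 listed 32.0%, 65.0%, 90.2% and 95.1%, and untreated replicate 2 listed 88.9%, 96.5%, 97.0% and 100%. The siMena share was thus the lowest of the 3 at each of the levels given, except for the 3 replicate 2 regions at 12 or more, which all 3 groups listed. These shares are set against the same siControl lists, and the siMena list was also the shortest in each number. Seen from the other side, all 454 regions with a siMena replicate 1 fold from 10 to 12 and all 108 above were listed in siControl replicate 1, as were 87.2% of those from 4 to 5.

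**Figure D3:**
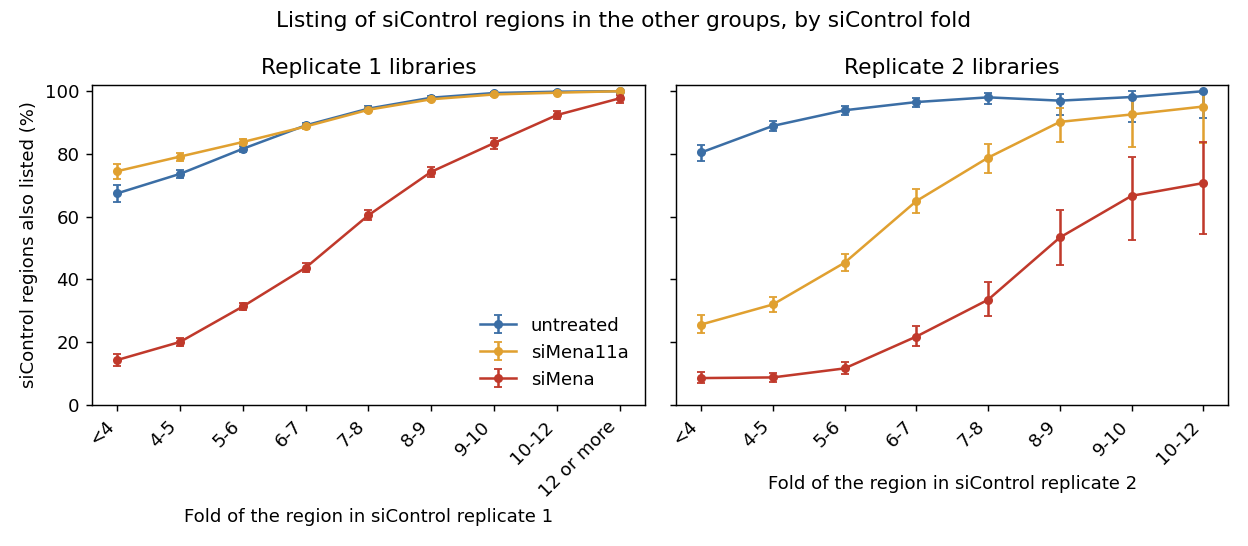
Share of siControl regions on chromosomes 1 to 22 and X (vertical axis, %) that untreated, siMena11a and siMena libraries of the same replicate number also list, by siControl fold (horizontal axis), with 95% exact intervals, for classes of at least 20 regions. The siMena line is the lowest in both panels, at 20.1% for a fold from 4 to 5 in replicate 1 and 8.79% in replicate 2.

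The 498 regions missing from both siMena lists made up 10.8% of the 4612 regions in both siControl lists (95% exact interval 9.92 to 11.7%). The count rested on single libraries. It was 555 without siMena replicate 2, 867 without siControl replicate 1, 3921 without siMena replicate 1 and 13801 without siControl replicate 2. The 4612 regions were split into 10 classes of equal size by the lower of both siControl percentiles. In the weakest class 24.0% (20.2 to 28.2%) were missing and in the fifth 13.9%. In the ninth 6 of 461 were missing, and in the strongest 0 of 461, with an upper bound of 0.797%. In the strongest class siMena replicate 1 listed every region and siMena replicate 2 listed 59.2%.

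Within these classes of strength the missing regions were narrower and less often had more than 1 summit. Their siControl replicate 1 peak had a median width of 361 bp, against 615 bp for regions that siMena replicate 1 did list, weighted to the same classes of strength. More than 1 summit was present in 12.05% of the missing and 39.0% of the listed regions. A region counted as listed when any siMena peak overlapped or touched it, which a wide region allows more easily. The part of this rule in the differences of width and summits was not tested. The missing regions also had a lower siControl replicate 1 fold within these classes, with medians of 6.57 and 8.50. Their median of summit tags in siControl replicate 1 was 18, against 32 in the listed regions and 21 after the matching described next. Strength was thus not fully equal. Matching on both siControl libraries, with 5 classes of each, brought the medians to 6.57 and 6.82, and the listed regions then had a width of 525 bp and more than 1 summit in 34.8%. With a siControl replicate 1 fold from 7 to 9, the median width was 403 bp (quartiles 305 to 509) at 145 missing and 657 bp (519 to 839) at 1231 listed regions. From 5 to 7, it was 345 bp (267 to 436) at 214 missing and 598 bp (426 to 806) at 507 listed regions. The quartile ranges did not overlap from 7 to 9 and overlapped slightly from 5 to 7. Regions that siMena replicate 2 listed and siMena replicate 1 did not were also narrow. Their median was 321.5 bp from 5 to 7 (n = 16) and 279.5 bp from 7 to 9 (n = 4). The missing regions also lay closer to their next siControl replicate 1 region, with a median gap of 15669 bp (quartiles 4834 to 44925) against 20459 bp after matching on both libraries. This direction did not hold in every matched class. In the weakest class of both libraries the gaps were 13100 and 22096 bp. In the second weakest class of siControl replicate 1 and the weakest of replicate 2 they were 25478.5 and 21807.5 bp.

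**Figure D4:**
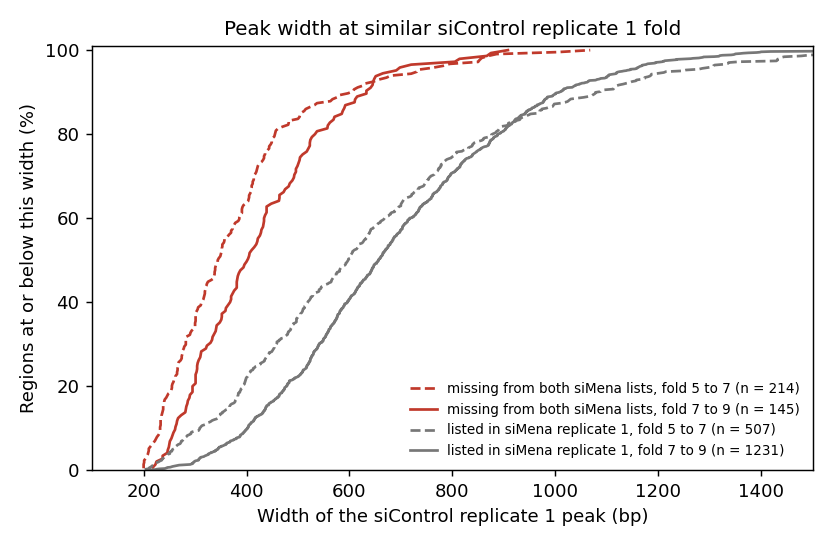
Cumulative share of regions (vertical axis, %) by width of the siControl replicate 1 peak in bp (horizontal axis), for regions missing from both siMena lists (red) and listed in siMena replicate 1 (grey), at a siControl replicate 1 fold from 5 to 7 (dashed) and from 7 to 9 (solid). The red lines lie to the left of the grey ones, with medians of 345 against 598 bp and of 403 against 657 bp.

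Most of the missing regions were open in the other libraries of the line. Untreated replicates 1 and 2 listed 93.6% and 88.8% of the 498, and siMena11a replicate 1 listed 96.0%. Matched listed regions were found there at 96.3%, 92.1% and 97.9%. siMena11a replicate 2, whose list is short, held 12.05% of the missing and 21.5% of the matched regions.

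Ranked by the lower of both siControl folds, the first missing region lay on chromosome 1 from 107619445 to 107619850. Its fold was 11.4 in siControl replicate 1 and 10.4 in replicate 2, with 25 and 33 summit tags. Untreated replicates had 11.98 and 8.98 and siMena11a replicate 1 had 12.6, while siMena11a replicate 2 did not list it.

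The second, on chromosome 4 from 41992320 to 41992904, had folds of 8.12 and 7.35 in siControl, 11.8 and 9.81 in untreated and 9.44 in siMena11a replicate 1. Next were chromosome 8 from 116990463 to 116990867 (9.93 and 7.30 in siControl) and chromosome 7 from 89808093 to 89808558 (7.08 and 7.65). They were followed by 3 regions on chromosome 5, from 136570825 to 136571361, from 61529238 to 61529658 and from 24065903 to 24066283, with replicate 1 folds of 9.62, 7.69 and 8.87. The last was 78129679 to 78130061 of chromosome 14, at 8.17 and 6.91. Untreated replicates 1 and 2 listed all 8, as did siMena11a replicate 1, and 2 of them, from 24065903 and from 78129679, were also listed by siMena11a replicate 2, at folds of 3.31 and 3.93.

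Missing from a list does not mean closed, because a summit at the genome-wide background entered the list only above a fold of 4.06 in siMena replicate 1 and 3.61 in siMena replicate 2. The siControl folds of the missing regions were multiplied by the median ratio of siMena to siControl at the 637 shared regions, 0.887 in replicate 1 and 0.754 in replicate 2. Of the 494 missing regions on the chromosomes, 451 then stood at or above the limit in replicate 1, 225 in replicate 2 and 212 (42.9%) in both, against 58.3% of all 4527 siControl regions there. Regions at or above the limit by this measure were listed by siMena replicate 1 in 89.3% of cases and by siMena replicate 2 in 19.2%. Of the regions below it, siMena replicate 1 still listed 34 of 93 (36.6%) and siMena replicate 2 listed 107 of 1856 (5.77%). The limit was set for summits at the genome-wide background but applied here at any local background. It is thus not a strict cutoff. The ratio comes from listed regions only, and whether it holds for the others was not tested. Over all chromosome regions that a pair of the same number shared, the median ratio was 0.819 in replicate 1 (13212 regions) and 0.793 in replicate 2 (749 regions).

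Regions found with siMena but not with siControl were few. The only region in both siMena lists and neither siControl list, 0.145% of the 689 regions in both siMena lists, spans 250 bp on the contig 9_gl000199_random from 108093 to 108342. It had folds of 2.58 and 2.24, with a local background of 9.86 and 41.9 tags, and was listed by untreated replicate 2 and siMena11a replicate 2 at folds of 2.42 and 1.96. No such region was found on chromosomes 1 to 22 and X. Without siMena replicate 1 the count was 120 and without siMena replicate 2 it was 937, and 24 and 29 without siControl replicates 1 and 2.

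The chromosomes kept their siControl regions to different degrees in siMena replicate 2. Of the regions in both siControl lists, siMena replicate 2 held 4 of 10 on chromosome 22 (95% exact interval 12.2 to 73.8%), 19.9% of 261 on chromosome 8 (15.3 to 25.3%), 19.7% of 127 on chromosome 16 (13.2 to 27.7%) and 19.1% of 68 on chromosome 17 (10.6 to 30.5%). It held 10.1% of 298 on chromosome 4 (6.90 to 14.1%) and 2 of 71 on chromosome X (2.82%, 0.343 to 9.81%). Regions missing from both siMena lists made up 16.1% on chromosome 4 (12.1 to 20.8%), 4.72% on chromosome 16 (1.75 to 10.0%) and 0 of 34 on chromosome 19, which allows up to 10.3%. The intervals of most chromosomes overlapped. In siMena replicate 2 the median local background of a listed summit was 2.301 times the genome-wide level on chromosome 8 and 1.18 times on chromosome 4. In siControl replicate 2 the same chromosomes stood at 1.88 and 1.12 times. Chromosome 20 had a higher value than chromosome 8 in siMena replicate 2, 3.23 times, with 14.8% of 115 regions held (8.85 to 22.6%). Chromosomes 6, 12, 13 and 18 held smaller shares than chromosome 4, at 9.36%, 9.22%, 7.32% and 8.82%. Their local backgrounds in siMena replicate 2 were 1.17, 1.47, 1 and 1.93 times the genome-wide level. Whether the share held follows the local background over the chromosomes was not tested. DNA copy number and openness of the surrounding chromatin cannot be told apart in this measure. Off the assembled chromosomes siMena replicate 2 held 88.2% of 85 regions (79.4 to 94.2%), against 13.7% of 4527 on them.

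**Figure D5:**
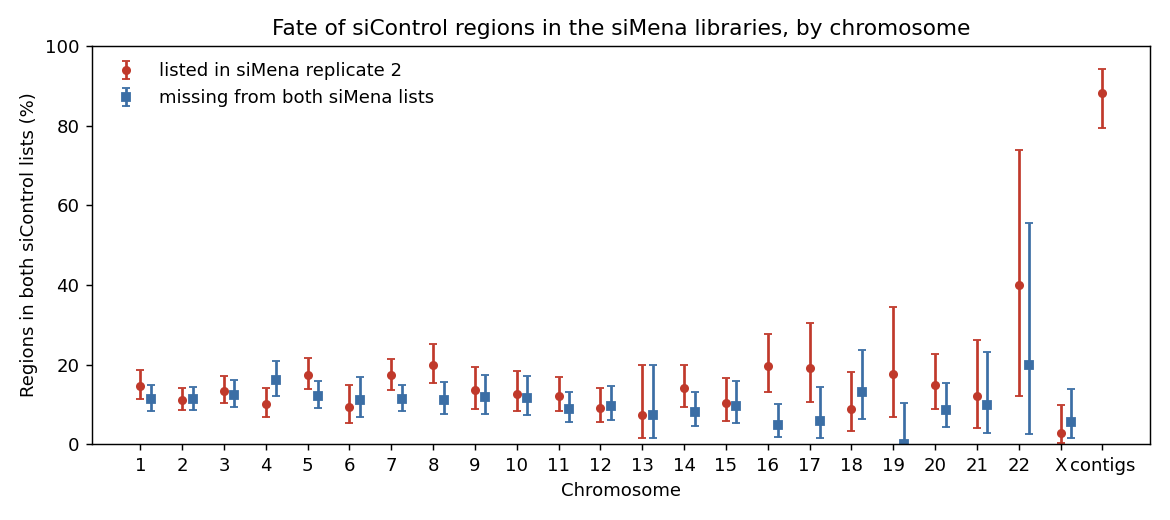
Share of the regions in both siControl lists (vertical axis, %) that siMena replicate 2 lists (red circles) or that both siMena libraries lack (blue squares), by chromosome, with 95% exact intervals, and for unplaced and random contigs together (red circle only). The red circles stand at 88.2% for the contigs and, on chromosomes with over 50 regions, between 2.82% and 19.9%.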

How the data were processed

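ATAC-seq libraries were made from H1650 cells, 2 per group, with the groups taken from the sample titles. The submitters' processing notes name MACS2 2.2.5, SAMtools 1.7, Bowtie2 2.3.4.2 and FastQC 0.11.5, and build hg19. Trimming, duplicate removal and any shift for the transposase are not given in the sources used here. The authors deposited 1 peak list per library, ending at a q of 0.01. Columns hold the deposited score (10 times the -log10 q, rounded down), the deposited fold ratio (summit pileup over local background, 1 added to each) and the authors' -log10 p and -log10 q values. Read totals were not used here. Tags and local background of each summit were recovered from fold and -log10 p by a Poisson tail, matching the -log10 p within 0.001 for 100% of rows. The recovered values of 23 rows of siMena replicate 1, below the genome-wide background, were set aside. A region took the values of its strongest peak in each list. Coordinates are counted from 1. Code was tested on simulated data.

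No sequence or gene annotation of hg19 was used here, so the gene and marker lists drawn up for the comparison were not analysed and no gene is named. The regions described are, by rule: the 5 with the widest gap in percentile between groups in each direction (also when ranked among shared regions), the 8 missing with the highest lower siControl fold, up to 5 present with siMena only and the 5 strongest in all 4 lists. The members and rules were chosen with earlier results of these data known. The test on library medians was an exact permutation of the 4 libraries, two-sided. Shares carry 95% exact Clopper-Pearson intervals. Alternatives were shortened lists, chromosomes 1 to 22 and X alone, peaks covering 50% of a region, a -log10 q of at least 5, other measures of percentile, fold and strength, single libraries left out and the replicate number as a block. Computation used SciPy 1.17.1, pandas 2.3.3 and numpy 2.4.6 under Python 3.11.15, and plots matplotlib 3.10.9.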

Additional observations from a re-analysis of the deposited data

How the results depend on the processing

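Peak lists give no counts outside peaks, so a missing region has no value, and 2 libraries a group allow no call per region by a test. With all lists shortened to the 1020 peaks of the shortest, 81 regions were missing and 33 gained, 24 of 247 shared regions (9.72%) stood higher without overlap and 51 (20.6%) lower, the difference of library medians of percentile was -9.61, and 42.3% of the weakest class and 15.8% of all siControl regions were missing. None of the 8 named missing or 5 named lower regions was called there. On chromosomes 1 to 22 and X alone, 0 regions were gained and 0 stood higher. With peaks covering 50% of a region, 2 were gained and 18 of 217 (8.29%) stood lower (2 of the 5 named). With the stricter -log10 q, 0 were gained and 39 of 385 (10.1%) stood lower (1 of the 5 named), shares close to the 11.6% of the 637. By fold percentile 16 stood higher, and ranked among the shared regions 73 stood higher and the median difference was 0, as it must be. Strength by fold gave 15.4% missing in the weakest class. Matching on both siControl libraries, a choice made after seeing the data as were the ranking among shared regions for counts and the tags over genome-wide background (-0.68), gave a width difference of -164 bp in place of -254 bp and a summit share difference of -22.7 in place of -26.9 percentage points.

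The replicate numbers are shared between the groups, but the labels do not say that they pair libraries. Deviations from the group means correlated with an r of 0.67 (log2 fold) between same-numbered libraries over the 637 regions. With the replicate number as a block, 13859 regions were missing and 972 gained within replicate 1, and 4247 and 154 within replicate 2. The difference of library medians, which is not the median of the differences per region, was -1.94 and -39.6 in percentile and -0.22 and -0.52 in log2 fold. Own-list percentiles were lower within both numbers at 395 regions and higher at 22. Ranks among the shared regions were lower within both at 171 and higher at 189. Missing were 87.1% of the weakest and 1.14% of the strongest class and 51.0% of all in replicate 1, and 97.6%, 33.2% and 83.4% in replicate 2.

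Leaving out each library in turn gave 555 to 13801 missing, 24 to 937 gained, 19 to 731 higher and 196 to 901 lower regions, out of 659 to 4056 regions listed in the other 3. Over those regions the difference of library medians ran from -40.1 to 6.35 in percentile and from -0.81 to 0.083 in log2 fold. Over the 637, a choice made after seeing the data, it ran from -43.0 to 1.43 and from -0.84 to 0.103. Only without siMena replicate 2 was it above 0, over 4056 regions or the 637. Leaving out a siMena library, the missing share was 27.5% to 93.9% in the weakest class, 0 to 40.8% in the strongest and 12.04% to 84.9% in all, the higher value each time without siMena replicate 1.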

Other observations

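A set of 125 regions was listed by siControl and siMena replicate 2 and by neither replicate 1 library, with a median fold of 4.12 in siControl and 3.995 in siMena and a median width of 364 bp. Of these, 19 lay on unplaced or random contigs. The siMena replicate 2 list held 131 of its 1020 peaks (12.8%) on such contigs. In the siControl replicate 2 list 133 peaks (2.54%), in siControl replicate 1 140 (0.513%) and in siMena replicate 1 93 (0.634%) were of this kind, so the number was similar in 3 of the 4 lists while their lengths differed.

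The regions with the highest siControl replicate 1 fold among those that siMena replicate 1 did not list were chosen after their values were seen. The first (chromosome 19, 21324615 to 21324991) reached 14.7 in siControl replicate 1, 9.38 and 8.46 in untreated and 11.6 in siMena11a replicate 1, and no replicate 2 library of siControl or siMena listed it. The second (chromosome 9, 79433190 to 79433576) had folds of 13.8 and 5.17 in siControl, 11.8 and 10.9 in untreated and 11.0 and 5.38 in siMena11a. It was listed in all 6 libraries outside the siMena group and in neither siMena library.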
